A study of Homo sapiens with 6 samples.

Results

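The minor spliceosome snRNAs are the U11, U12, U4atac and U6atac RNAs, and their genes RNU11, RNU12, RNU4ATAC and RNU6ATAC were taken from the deposited CLIP-seq peak lists by symbol. These 4 genes held 12 of the 1316 peaks of the 3 lists, and they are 4 of the 947 genes with a peak. A peak is a distinct chromosome, start and end within a list, so a position found in several lists counts once in each. The series holds 6 samples of MOLM-13, a human acute myeloid leukaemia cell line, with 2 samples each in galactose, low glucose and normal glucose medium. RNA crosslinked by UV light to GAPDH, the glycolytic enzyme glyceraldehyde-3-phosphate dehydrogenase, was recovered with a polyclonal antibody, cut with RNase T1 and sequenced. The media differed in the sugar that feeds glycolysis, and the comparison asks whether GAPDH contacts other RNAs when that sugar changes. Per the study's methods galactose was given at the same concentration as the glucose of the normal medium, the low glucose medium held less, and cells were kept in each for a day before lysis. For each medium the deposited list joins both samples and holds positions with gene names, without read numbers, scores or strands. The spread between samples and the sequencing depth are therefore unknown, no test between media was made, and a missing peak says only that no site passed the peak calling and the joining. Steady levels of these RNAs were not analysed here, so more RNA and more contact per RNA cannot be told apart.

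Minor introns are a rare class that is removed by a spliceosome of its own. U11 pairs with the 5' splice site and U12 with the branch point, and both work together in 1 particle. U6atac then takes the place of U11 at the 5' splice site and builds the catalytic centre, and U4atac is its partner that keeps it inactive until it is needed. U11, U12 and U4atac are bound by the ring of Sm proteins at a U-rich Sm site, while U6atac ends in a run of U that is bound by Lsm proteins.

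The RNAs are shown here as DNA letters of hg38 on the strand of the gene, because every site described below is counted from their first base (position 1, with -1 as the base before it). Capitals mark AATTTTT, the core of the Sm site, which was searched on the sense strand and found once in each of U11 (87 to 93), U12 (74 to 80) and U4atac (115 to 121) and not in U6atac.
U11: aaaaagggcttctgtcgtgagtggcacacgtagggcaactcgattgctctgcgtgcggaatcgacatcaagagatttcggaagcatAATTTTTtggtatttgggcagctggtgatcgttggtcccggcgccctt
U12: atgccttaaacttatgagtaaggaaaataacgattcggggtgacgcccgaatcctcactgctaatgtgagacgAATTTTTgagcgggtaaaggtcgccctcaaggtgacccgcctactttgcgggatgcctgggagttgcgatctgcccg
U4atac: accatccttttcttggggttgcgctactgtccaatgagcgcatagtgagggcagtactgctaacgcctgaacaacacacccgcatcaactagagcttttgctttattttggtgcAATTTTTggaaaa
U6atac: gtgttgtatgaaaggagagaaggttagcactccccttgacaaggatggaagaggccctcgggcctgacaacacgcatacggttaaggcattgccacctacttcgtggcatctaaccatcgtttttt

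The same 7 letters were present in 128 of 1901 annotated snRNA genes (6.73%), most of which are copies of other snRNAs. RNU11 lies at chr1:28648600-28648733 (134 nt, plus strand), RNU12 at chr22:42615244-42615393 (150 nt, plus strand), RNU4ATAC at chr2:121530881-121531007 (127 nt, plus strand) and RNU6ATAC at chr9:134164439-134164564 (126 nt, minus strand). GC content lay between 45.7% in U4atac and 52% in U12.

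The peaks were not spread evenly over the 4 RNAs. U11 had 2 peaks in every list, U4atac 1 peak in every list, U12 1 peak in each of the 2 glucose lists, and U6atac 1 peak in low glucose. Galactose thus held 3 member peaks in 2 genes, low glucose 5 peaks in all 4 genes, and normal glucose 4 peaks in 3 genes. Members made up 0.89% of the 337 galactose peaks (exact 95% binomial interval 0.184 to 2.58%), 1.03% of the 484 low glucose peaks (0.336 to 2.39%) and 0.808% of the 495 normal glucose peaks (0.221 to 2.06%). The 3 intervals overlap over most of their length, and they cover counting error over peaks only. Of the 4 genes, 2 had a peak in every list, beside 149 of all 947 annotated genes (15.7%) and 9 of 26 other snRNA genes (34.6%).

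**Figure D1:**
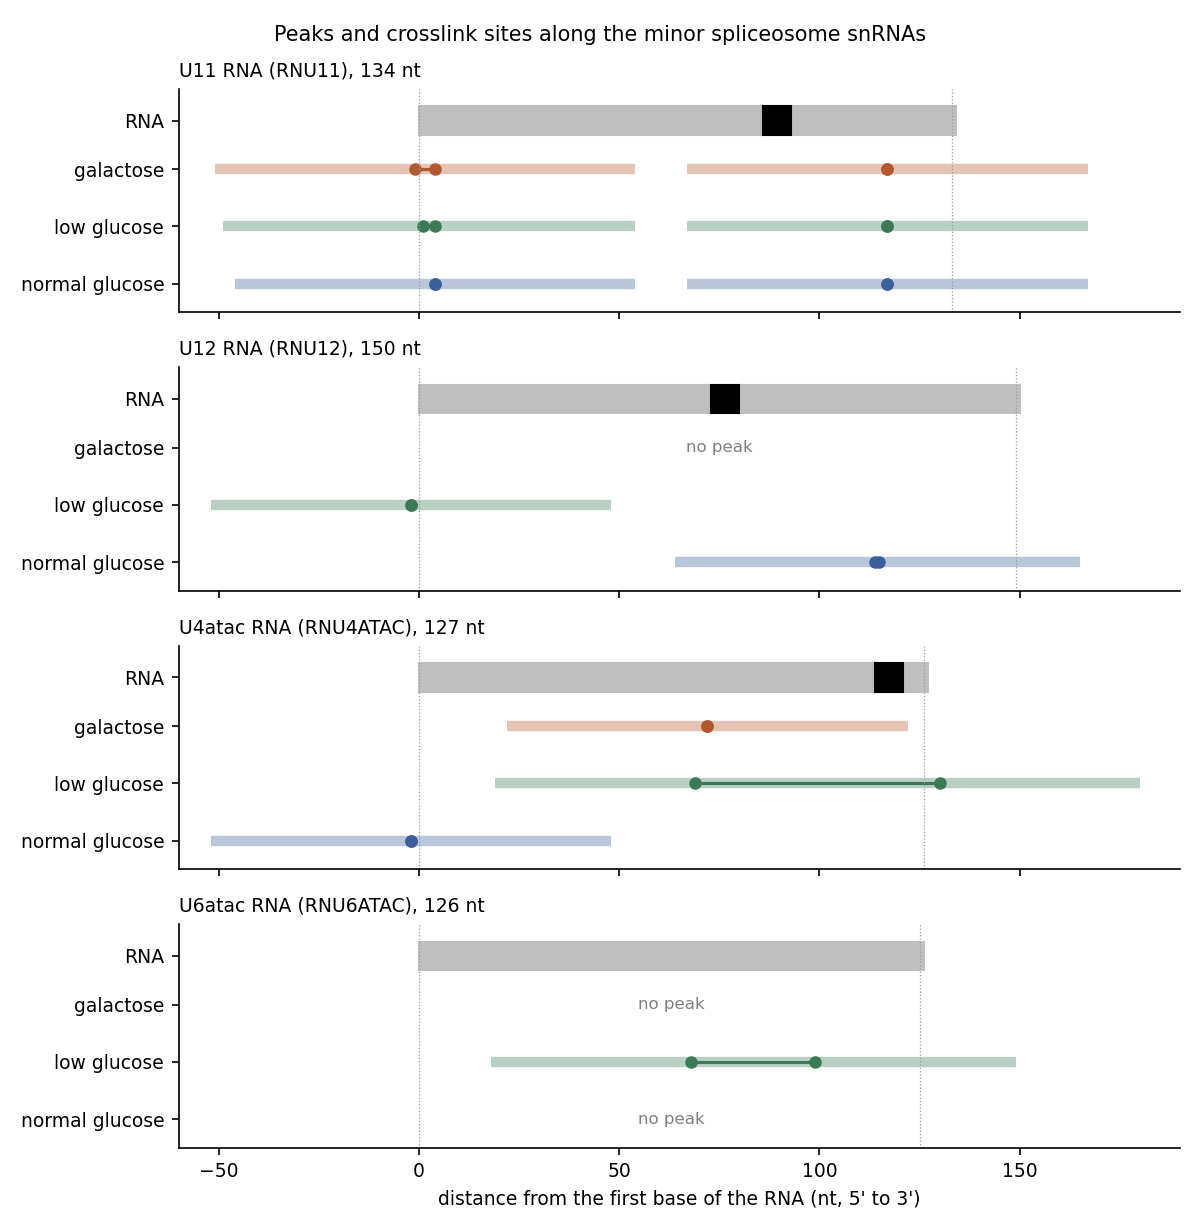
Peaks (pale bars) and crosslink sites (points, joined by a line from the first to the last site of a peak) of each list along the 4 RNAs, against the distance in nt from the first base, which is 0 here and position 1 in the text. Grey bars are the RNAs with AATTTTT in black and dotted lines mark the first and last base. U11 has sites at positions 5 and 118 of the text in all 3 lists, while its first site at the 5' end differs between them. The sites of U12 and U4atac lie at either the 5' end or further inside, depending on the list.

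The lists hold peaks and not crosslink sites. Every peak is at least 101 nt wide, so the first and last site were inferred to lie 50 nt inside its ends. A peak of 101 nt then has a single site. The study's methods state an extension of up to 50 bases for lone sites only, so the end sites of wider peaks are less certain. Sites in the text and figures are given under this reading. Peaks that overlapped, from any list, formed 1 region. The members made up 6 of 951 regions, and 3 of these 6 held a peak of every list, against 105 of all 951 (11%) and 10 of 33 other snRNA regions (30.3%). A peak with the same start and end in every list was found in 1 of the 6 regions, against 67 of 951 overall (7.05%). With so few regions these shares describe the members and show no difference from other genes.

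U11, which recognises the 5' splice site, carried the most constant sites. The peak near its 3' end, chr1:28648667-28648767, was identical in all 3 lists and had its single site at position 118. The peak at its 5' end was chr1:28648549-28648654 in galactose (106 nt), chr1:28648551-28648654 in low glucose (104 nt) and chr1:28648554-28648654 in normal glucose (101 nt). All 3 lists had a site at position 5 there, which was the single site in normal glucose. The first site lay at position -1 in galactose and at position 2 in low glucose, so that the 3 peaks ended on the same base and differed only in how far they ran towards and past the 5' end. The letters AAAGG, which are complementary to CCTTT of the minor 5' splice site consensus, occurred once in U11, at positions 3 to 7, and hold position 5. They are short, and 134 of 1901 snRNA genes (7.05%) contain them on the sense strand. The windows below show these sites with 10 bases on either side, with capitals from the first to the last site.
U11 5' end, galactose: acagagaaagCAAAAAgggcttctgt
U11 5' end, low glucose: agagaaagcaAAAAgggcttctgt
U11 5' end, normal glucose: gaaagcaaaaAgggcttctgt
U11 position 118, all lists: ctggtgatcgTtggtcccggc

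In each list the U11 peaks together covered 122 of 134 bases (91%), and the site at 118 lay 25 nt past the Sm core. The 5' peaks also ran upstream of the gene, by 51 nt in galactose, 49 nt in low glucose and 46 nt in normal glucose, and nearly all of this is the 50-nt extension. That stretch touches the lncRNA TAF12-DT, which is named beside RNU11 on these peaks although all their sites lie outside it. A second lncRNA, ENSG00000270103 (chr1:28648600-28648730), overlaps RNU11 on the same strand almost from end to end, and reads of the 2 genes cannot be told apart. The 30-mers of the peak at position 118 occurred once in the genome. Of the 30-mers of the 5' peaks, 18.2% recurred in the galactose peak, 18.7% in the low glucose peak and 19.4% in the normal glucose peak.

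U12, which pairs with the branch point, had its peaks at different ends in the 2 glucose media. In low glucose the peak chr22:42615192-42615292 had its site at position -2, just before the first base. In normal glucose the peak chr22:42615308-42615409 had sites at positions 115 and 116. These peaks did not overlap, with 15 nt between them and 116 nt between their sites, and no peak carried the name RNU12 in galactose. The low glucose peak covered 32.7% of U12 and the normal glucose peak 57.3%. The letters AAGGAA, complementary to TTCCTT of the minor branch point consensus, occurred once in U12 at positions 20 to 25 (30 of 1901 snRNA genes, 1.58%, contain them), so that neither site fell on them. Both sites also lay away from the Sm core, by 75 nt in low glucose and by 35 nt in normal glucose.
U12 position -2, low glucose: aaaaacgtccTtatgccttaa
U12 positions 115 and 116, normal glucose: gtgacccgccTActttgcggga

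RNU12 lies in an intron of the protein coding gene ENSG00000289517 on the other strand. It also lies wholly within the lncRNA ENSG00000270022 (chr22:42615244-42615907), which begins at the same base on the same strand. Both names stand beside RNU12 on each of its peaks. Reads of RNU12 and this lncRNA cannot be told apart where they overlap. The 30-mers of the U12 peaks were nearly all found once in the genome, with 2.78% recurrent in low glucose and 0% in normal glucose.

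U4atac, the partner that holds U6atac, had 1 peak in every list but not at 1 place. Galactose had chr2:121530903-121531003 with a single site at position 73. Low glucose had chr2:121530900-121531061, whose sites ran from position 70 to position 131, past the last annotated base. Normal glucose had chr2:121530829-121530929 with a single site at position -2. The galactose peak lay wholly inside the low glucose peak, and position 73 lies between the first and the last site there. The normal glucose peak shared only 27 nt with galactose (26.7% of the shorter peak) and 30 nt with low glucose (29.7%), and its site was 74 nt from the galactose site and 71 nt from the first low glucose site. Thus U4atac counts as a region of every list through the extended ends, whereas the normal glucose site lay apart from those of galactose and low glucose. The sites between the ends of the low glucose peak are not given in the list, so whether position 73 was one of them is not known.
U4atac position 73, galactose: acgcctgaacAacacacccgc
U4atac positions 70 to 131, low glucose: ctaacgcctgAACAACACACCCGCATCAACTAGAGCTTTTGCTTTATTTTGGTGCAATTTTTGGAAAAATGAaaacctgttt
U4atac position -2, normal glucose: ctttctattaTaaccatcctt

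The U4atac peaks covered 79.5% of the RNA in the galactose list, 85% in the low glucose list and 38.6% in the normal glucose list. The low glucose peak was 162 nt wide, and 59 of the 484 low glucose peaks (12.2%) were wider. It was the only member peak whose span from first to last site held the Sm core. RNU4ATAC lies in introns of CLASP1, a microtubule-binding protein gene on the other strand, and of the lncRNA CLASP1-AS1 on the same strand, and both names stand beside it in all 3 lists. In RefSeq the gene begins 1 base earlier and ends 2 bases later (chr2:121530880-121531009, 130 nt), which places the normal glucose site directly before the first base.

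U6atac, which forms the catalytic centre, had 1 peak, in low glucose, at chr9:134164415-134164546. It was 132 nt wide with sites from position 69 to position 100 and covered 85.7% of the RNA, and it was the only member peak with no other gene beside it. Thus 11 of the 12 member peaks were annotated to more than 1 gene, against 403 of all 1316 peaks (30.6%). The letters AAGGA, complementary to TCCTT of the 5' splice site, first occurred at positions 12 to 16 of U6atac and a second time further on, and 836 of 1901 snRNA genes (44%) contain them. Both occurrences lie before the span of the sites.
U6atac positions 69 to 100, low glucose: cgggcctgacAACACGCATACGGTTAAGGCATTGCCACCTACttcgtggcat

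Of the 30-mers of the U6atac peak, 65% occurred elsewhere in the genome. It was the 1 member peak of 12 above 50%, beside 252 of all 1316 peaks (19.1%) and 16 of 59 other snRNA peaks (27.1%). GENCODE holds 41 annotated copies named after RNU6ATAC, 17 after RNU4ATAC, 5 after RNU11 and 1 after RNU12. None of these 64 copies had a peak in any list. Few snRNA genes had a peak at all (26 besides the members, with 1901 annotated), so this absence is no result about the copies. The study refers to its deposited code for the mapping settings, which were not used here, so how reads that fit several copies were placed is not known here.

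**Figure D2:**
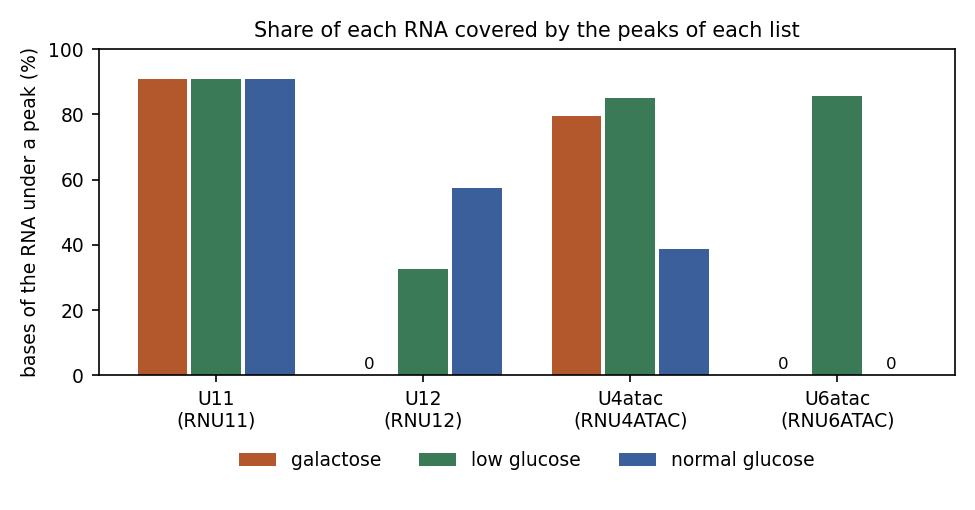
Bases of each RNA that lay under a peak (%), per list, with 0 where a list had no peak. U11 stands at 91% in all 3 lists, U12 at 32.7% and 57.3% in low and normal glucose, and U4atac at 79.5%, 85% and 38.6%. Part of each bar is the 50 nt by which peaks extend past their sites.

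Of the 4 RNAs, 3 had sites at both the 5' end and further inside. A site within 5 nt of the first base was present in 5 of the 12 peaks (41.7%), namely U11 in each list, U12 in low glucose and U4atac in normal glucose. Over all genes this held for 189 of 1305 peaks with an annotated gene (14.5%), and for 19 of 59 peaks of other snRNA genes (32.2%). Those of U12 and U4atac were both at position -2. The same position was the first site in 12 of the 59 other snRNA peaks. Together 14 such entries were counted, with 2 from the galactose list, 3 from the low glucose list and 9 from the normal glucose list. RNU1-88P had an entry in each list. The number of snRNA peaks per list was not set beside these counts, so they show no difference between media. The entries lay on both strands. Of the 12 of other snRNA genes, 2 were on plus (RNU5A-1 and RNU5B-1) and 10 on minus, among them RNU2-2P, RNU4-1 and RNU4-2.

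RNase T1 cuts after G, so the base before a site was read as well (on the strand of the snRNA). Of the 7 member peaks with a single site, 3 had a G before it, and these were the 3 copies of the U11 site at 118. The other 4 places (U11 position 5, U12 position -2, and U4atac positions 73 and -2) had A or C there. Over all single-site peaks whose genes lie on 1 strand, 261 of 638 had a G before the site (40.9%). The single-site peaks of U12 and U4atac also name a gene on the other strand and are not among these 638. The member count and this share therefore rest on unlike sets of peaks. The part of RNase T1 in the U11 site at 118 was not tested.

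The sites inside the RNAs were set against the fold that each RNA is predicted to take on its own, without the proteins and partner RNAs that hold it in the cell. A probability of being unpaired is 1 for a base in a loop and 0 for a base in a stem. Position 118 of U11 had a probability of 1, positions 115 and 116 of U12 had 1 and 0.998, and position 73 of U4atac had 0.927. The averages over the whole RNAs were 0.347 for U11, 0.412 for U12, 0.446 for U4atac and 0.474 for U6atac. Positions 2 and 5 of U11 were lower with 0.510 and 0.435, though above the average of that RNA. The first low glucose site of U4atac had 0.389, and the first and last sites of U6atac had 0.071 and 0.998. Position 118 of U11, positions 115 and 116 of U12 and position 73 of U4atac thus fell on bases predicted to be mostly unpaired. Among the ends of the wide peaks of U4atac and U6atac, only the last site of U6atac did so. The last low glucose site of U4atac, at position 131, lies past the annotated RNA and has no probability.

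**Figure D3:**
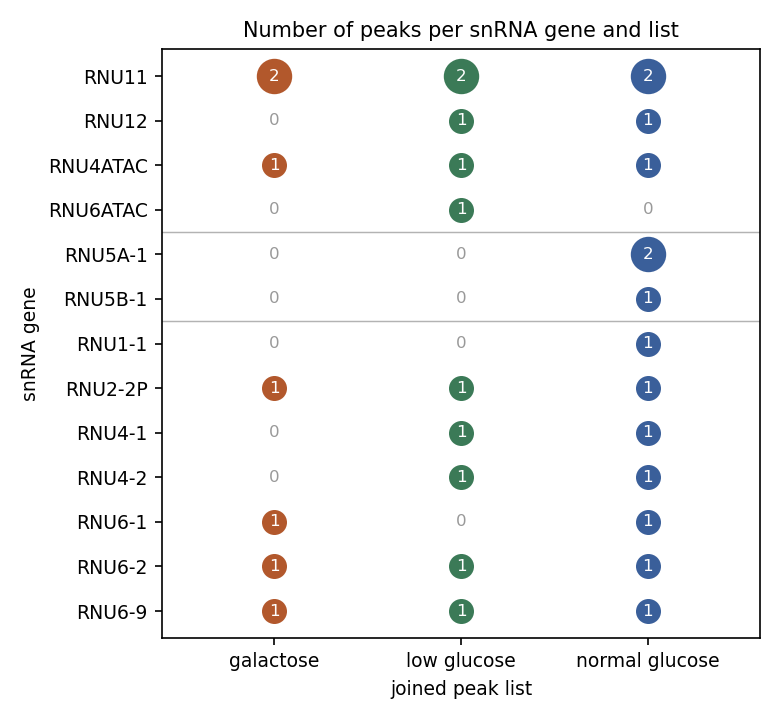
Number of peaks (printed in the points, 0 in grey) of each snRNA gene in each joined list, with the minor snRNAs on top, the U5 genes used by both spliceosomes in the middle and the major snRNA genes below. RNU11 has 2 peaks in each list, and the U5 genes have peaks in normal glucose and none in galactose or low glucose.

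Among the other RNAs of splicing, the U5 snRNAs serve both spliceosomes, and 2 of 5 genes had peaks. RNU5A-1 held 2 peaks and RNU5B-1 held 1, all in normal glucose. The RNA genes of the major spliceosome that correspond to the minor ones had peaks in 7 of 13 genes. Besides the members, 26 snRNA genes had a peak at all, with 1901 annotated, most of them copies. The galactose list named 4 of the 7 genes among its 367 genes. The low glucose list named 5 among 512, and the normal glucose list named 7 among 533. The lists differ in size and no test was made, so these counts and those of U5 show no difference between media. Of the 7 genes, 3 had a peak in every list (RNU2-2P, RNU6-2 and RNU6-9). For 2 of the U6 genes no site lay inside the RNA. The site of RNU6-1 was at position -29, before its first base, in galactose and normal glucose. That of RNU6-2 was at position 108, past its last base at 107, in all 3 lists. RNU4-1 and RNU4-2, the U4 counterparts of U4atac, had no peak in galactose and 1 each in both glucose lists. Their normal glucose peaks had a first site at position -2, as the normal glucose peak of U4atac had, but ran on to position 99. The low glucose sites lay at position 100 in RNU4-1 and at position 54 in RNU4-2. RNU2-2P, a U2 counterpart of U12, had sites from 64 to 164 in galactose and low glucose and from -2 to 164 in normal glucose. RNU1-1, a U1 counterpart of U11, had 1 peak, in normal glucose, with sites from -4 to 69, and the U6 gene RNU6-9 had its site at position 40 in galactose and low glucose and at 112, past its last base, in normal glucose. Between 27.8% and 87.5% of the 30-mers in the peaks of RNU1-1, RNU2-2P, RNU4-1, RNU4-2 and RNU6-9 recur in the genome. In each of these 5 genes a part of the peak sequence is thus shared with other places. The same held for RNU6-2 (31.9% in each list) and RNU5B-1 (27.8%). The peaks of RNU5A-1 (0% and 3.95%) and RNU6-1 (0%) had little or none of this.

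No peak was found in the messenger RNAs of this machinery. The 15 proteins of the minor spliceosome (among them RNPC3, which bridges U11 and U12, and ZRSR2, which recognises the 3' splice site), 14 Sm and Lsm proteins, 19 proteins of SF3b and the tri-snRNP and 13 proteins of snRNP assembly had 0 genes with a peak in each of the 3 lists. Only 947 genes of the whole annotation had a peak, and the share over all messenger RNA genes was not computed. The absence is therefore no result about these genes. At unknown depth it also does not show that these transcripts were free of GAPDH.

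The number of peaks per list was compared with that of all other genes to find the patterns most like each member. The counts of U11 (2 in each list) were matched by 4 genes, which included RN7SL3, RNU6-4P and SHF, and ENSG00000270103, which has the very same peaks. The pattern of U4atac was matched by 76 genes, 19 of them small RNA genes such as RNA5-8SN1 and RNA5S9, and that of U12 by 35 genes including RNU4-1 and RNU4-2. That of U6atac, a single peak in low glucose, was shared with 220 genes. Some matches are the same peaks under another gene name. These are CLASP1 and CLASP1-AS1 for U4atac, and ENSG00000270022 and ENSG00000289517 for U12. Likeness here rests on 3 lists and equal peak counts alone.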

How the data were processed

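GAPDH CLIP-seq of MOLM-13 cells was measured in 6 samples, 2 per medium. Per the submitters' processing notes the reads were trimmed with cutadapt and mapped with STAR to hg38 (GRCh38), without versions. The labels' extraction text describes a total RNA library after rRNA removal, and the CLIP steps are those of the study's methods, in which PureCLIP called crosslink sites, near sites were merged and lone sites extended. The authors deposited 1 joined list per medium with other values than counts: chromosome, start, end, gene identifier and symbol, without depth or strand. Both the calling threshold and the joining decide which sites can appear.

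Starts were read as 1-based with both ends included. Members were rows with the 4 symbols, placed in GENCODE release 44. Overlaps of 1 nt or more counted as shared. Peaks were termed recurrent if over 50% of their 30-mers had a second match in the primary hg38 chromosomes, on either strand. Unpaired probabilities came from ViennaRNA 2.7.2, intervals (Clopper-Pearson, 95%) from scipy 1.17.1 and sequences from pysam 0.24.0. Named genes were the members, genes with a peak from lists of spliceosome genes, and genes with equal peak counts per list. Members and lists were chosen with earlier results of these data known. Merging and 30-mer counting were tested on simulated data.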

Additional observations from a re-analysis of the deposited data

How the results depend on the processing

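No paired analysis was possible because the authors had joined both samples of each medium before deposit, and for the same reason no sample could be left out. Counting rows in place of peaks, or finding members by position, gave the same 3, 5 and 4 peaks in galactose, low glucose and normal glucose. Without recurrent peaks the U6atac peak was lost and low glucose held 4. When only peaks with no other gene name were kept, 0 peaks were left in galactose, 1 (U6atac) in low glucose and 0 in normal glucose, because RNU11, RNU12 and RNU4ATAC all lie on or in other genes.

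The 3 regions in every list became 2 with an overlap of 50% of the shorter peak, where U4atac was lost, 1 with identical peaks, which was U11 at position 118, and 2 with peaks within 50 nt joined, where both U11 regions became 1. Starts read as counted from 0 moved the middle of each peak by less than 1 nt. With the RefSeq bounds of RNU4ATAC, chosen after the data were seen, the middle of its peak lay 73 nt past the first base in galactose, 100.5 nt in low glucose and -1 nt in normal glucose, in place of 72, 99.5 and -2 nt. Depth is unknown, so the limit it sets on missing peaks is unknown too.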
